A study of Mus musculus with 9 samples.

Results

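The interferon response and RNA sensing genes are 51 genes of the mouse, chosen by symbol from a fixed list of receptors, sensors, transcription factors and interferon-induced genes. All 51 were found among the 53379 gene rows of the count table. They comprise 15 receptor, sensor, adaptor and factor genes and 36 induced genes. RNA was measured by polyA-selected RNA-seq in GFP+ cells sorted by FACS from the cortex of C57BL/6 mouse embryos. Electroporation in utero at E13.5 delivered the hairpin constructs, and the cells were taken 48 hours later, at E15.5. Cells of the circSlc45a4 knockdown carried a mix of 3 short hairpin RNAs (shRNAs) against circSlc45a4, a circular RNA of the Slc45a4 gene. Cells of the Slc45a4 mRNA knockdown carried 2 shRNAs against the linear mRNA of that gene, and scramble cells carried 1 scrambled sequence. Each group had 3 biological replicates, so all groups share the electroporation, the GFP label and the sort, and no group without electroporation or without a hairpin was analysed here. Nothing in the labels says which litters the replicates came from, so p-values measure the spread between these libraries.

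Type I interferon binds the receptor made of Ifnar1 and Ifnar2, and the kinases on that receptor activate a complex that holds Stat2 and Irf9. The complex enters the nucleus and binds interferon-stimulated response elements, which switch on a large set of antiviral genes. Cells start the same programme when sensors such as Ddx58 (RIG-I), Ifih1 (MDA5), Tlr3 or Eif2ak2 (PKR) meet double-stranded RNA in the wrong place, and Ddx58 and Ifih1 signal through the mitochondrial adaptor Mavs to Irf3 and Irf7. Unstimulated cells of most tissues hold little of the induced transcripts, whereas the receptor, Stat2, Irf3 and Irf9 are made throughout.

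The promoters of 5 members are shown because they set members with the response element beside members without one. Each line gives the 150 bases before the transcription start from RefSeq (build GRCm38.p6), 5′ to 3′ on the gene's strand, and capitals mark matches to the response element (GAAA, any 2 bases, GAAA) on either strand, overlapping matches being joined.
Isg15, chr4:156200819-156200968, minus strand: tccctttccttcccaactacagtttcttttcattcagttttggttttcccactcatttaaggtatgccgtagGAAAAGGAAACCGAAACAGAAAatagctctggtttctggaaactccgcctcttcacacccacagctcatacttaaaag
Oas1a, chr5:120907526-120907675, minus strand: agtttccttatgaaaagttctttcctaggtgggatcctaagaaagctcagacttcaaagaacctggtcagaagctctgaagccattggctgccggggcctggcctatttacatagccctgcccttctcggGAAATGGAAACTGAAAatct
Ifit1, chr19:34640739-34640888, plus strand: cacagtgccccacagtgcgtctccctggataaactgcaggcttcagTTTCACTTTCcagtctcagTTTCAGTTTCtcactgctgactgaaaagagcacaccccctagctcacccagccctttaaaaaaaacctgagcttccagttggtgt
Oasl2, chr5:114896784-114896933, plus strand: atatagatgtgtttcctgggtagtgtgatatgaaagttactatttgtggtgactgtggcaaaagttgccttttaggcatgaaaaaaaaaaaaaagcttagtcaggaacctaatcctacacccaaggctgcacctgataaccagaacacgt
Irf3, chr7:44997498-44997647, plus strand: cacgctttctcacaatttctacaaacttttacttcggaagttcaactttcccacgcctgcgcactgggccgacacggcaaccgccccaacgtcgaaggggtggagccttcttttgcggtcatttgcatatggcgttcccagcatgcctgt
Isg15, the ubiquitin-like modifier, holds 3 overlapping matches that begin 78, 72 and 66 bases before its start. Oas1a, which makes the oligoadenylates that activate RNase L, holds 2 that begin 20 and 14 bases before it, and Ifit1, an RNA-binding inhibitor of translation, holds 2 in reverse orientation that begin 104 and 85 bases before it. Oasl2, a relative of Oas1a, and Irf3, a factor that is made without induction, hold none in these windows. A RefSeq window of 300 bases (250 before the start, 50 after it) was found for 40 of the 51 members, some with more than 1 window. The element lay in 20 of their 44 windows (45.45%), against 1131 of 32851 windows of all genes (3.44%). By gene it was found in 16 of 27 induced members and in 4 of 13 receptor, sensor, adaptor and factor members. The gamma-activated site TTCNNNGAA, which reads the same on both strands, lay in 12 of the 44 windows (27.27%), against 8.30% of all windows. A match is a string of letters and not a shown binding site.

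Total counts per library were 36883510 to 45469298 in the circSlc45a4 knockdown, 35307378 to 37051161 in the Slc45a4 mRNA knockdown and 21073174 to 31833779 in scramble. Levels are given as CPM, each count scaled to its library's total. A library with no count is compatible with up to 3 counts, a limit of 0.0671 to 0.143 CPM over the libraries. Slc45a4 itself stood at 24.7 to 25.4 CPM with circSlc45a4 knocked down and at 13.3 to 18.5 CPM with Slc45a4 mRNA knocked down, against 31.4 to 33.96 CPM with scramble. PolyA selection does not retain a circular RNA, so circSlc45a4 was not measured. Replicate 1 of each knockdown stood apart from replicates 2 and 3 for the members, so member counts and medians are also given without those libraries. Fold changes and adjusted p of single genes rest on all libraries unless stated. Xist, which coats the silent X chromosome of females, moved with the members in part: replicates 1, 2 and 3 had 635, 264 and 428 CPM with circSlc45a4 knocked down and 1550, 637 and 0.194 CPM with Slc45a4 mRNA knocked down, against 0.239, 0.0648 and 0.0617 CPM with scramble. Its part in the results was not tested beyond a fit with Xist as a covariate. Xist cannot be told apart from the circSlc45a4 knockdown against scramble, since every scramble library was near 0. For the Slc45a4 mRNA knockdown the overlap is partial, since its replicate 3 was near 0 too. Ddx3y, a gene of the Y chromosome, had 20.0, 37.1 and 28.5 CPM in replicates 1, 2 and 3 with circSlc45a4 knocked down. It had 0, 21.9 and 39.1 CPM with Slc45a4 mRNA knocked down, against 41.6, 38.0 and 28.3 CPM with scramble. The labels give no sex. Per-library values below are always given in the order replicate 1, 2, 3.

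Most members were weakly expressed per transcript length (RPKM, the CPM divided by the merged exon length in kilobases). The highest in scramble were Ifnar1 at 13.1 RPKM, Irf3 at 11.4 RPKM, Stat2 at 5.17 RPKM, Ifnar2 at 4.32 RPKM, Ifitm2 at 4.12 RPKM and Irf9 at 3.83 RPKM, as means of 3 libraries. Ifit2 led the other induced genes at 1.89 RPKM, and 32 of the 36 induced genes and 9 of the 15 other members averaged below 1 RPKM in scramble. In the Slc45a4 mRNA knockdown Ifitm3 averaged 5.29 RPKM and Isg15 4.44 RPKM, against 0.558 RPKM and 0.252 RPKM in scramble. Replicate 1 raised both means of that knockdown. Its log2 CPM exceeded the mean of replicates 2 and 3 by 2.41 for Ifitm3 and 2.87 for Isg15. Of the 51 members, 43 passed the filter on low counts (at least about 10 counts in the libraries of a group) and were tested. These are bulk values, so fewer cells with a transcript and less transcript per cell cannot be told apart.

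**Figure D1:**
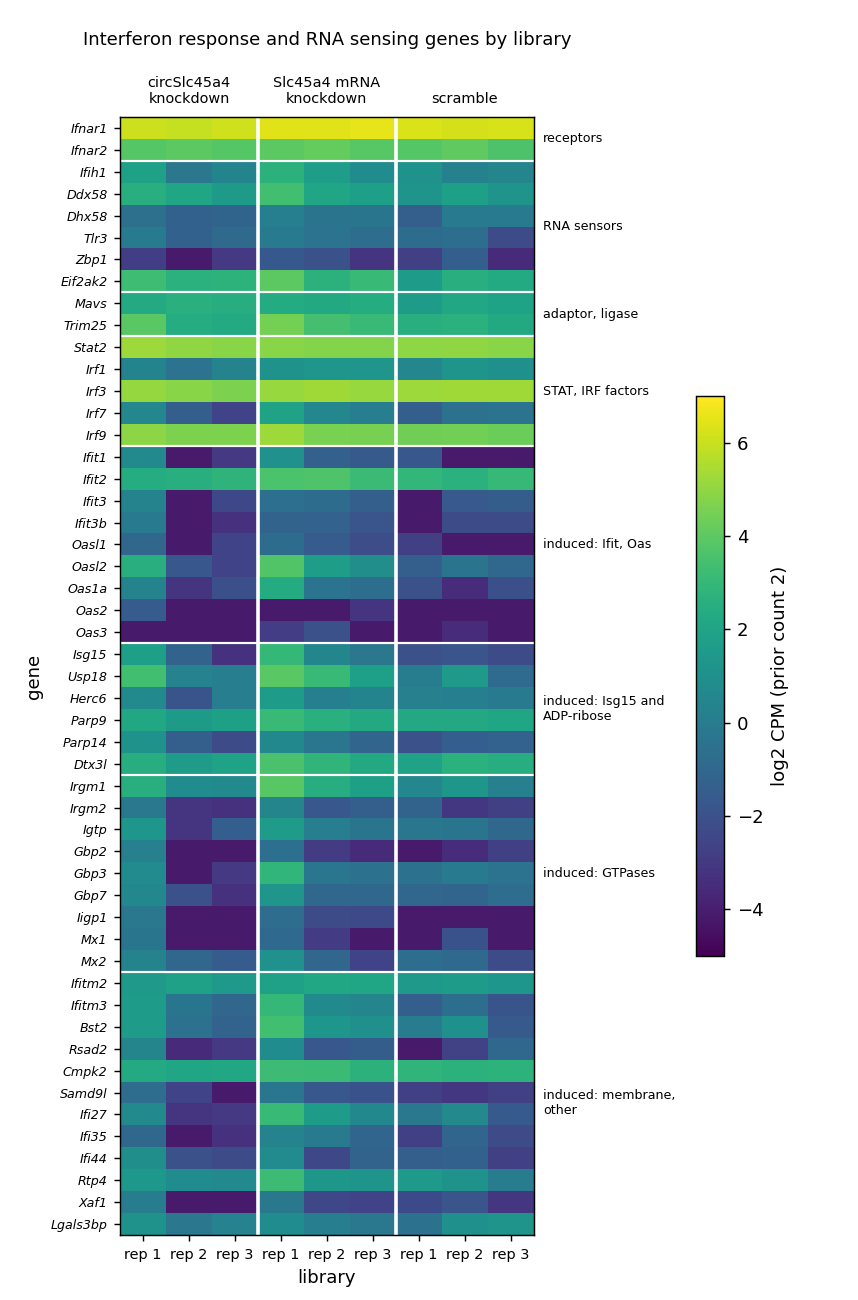
Log2 CPM (prior count 2) of the 51 members in each of the 9 libraries, with genes in rows grouped by role and libraries in columns, the circSlc45a4 knockdown at the left, the Slc45a4 mRNA knockdown in the middle and scramble at the right. The columns of replicate 1 of both knockdowns are lighter than their neighbours across the induced genes, while Ifnar1, Ifnar2, Stat2 and Irf3 differ little between columns.

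More members rose in the Slc45a4 mRNA knockdown (9) than in the circSlc45a4 knockdown (1). Against scramble, 9 of 43 tested members rose in the Slc45a4 mRNA knockdown (20.9%) and 0 fell, while 8.92% and 9.09% of all 17760 genes tested rose and fell, 18.0% in either direction (edgeR's quasi-likelihood F test with Benjamini-Hochberg adjustment over all genes, adjusted p under 0.05). The 9 were the sensor Eif2ak2, the ligase Trim25 and 7 induced genes, Ifit2, Oasl2, Oas1a, Isg15, Usp18, Irgm1 and Ifitm3. With limma-voom the 9 rises became 1, while 1417 of all genes rose. The count of members that fell was 0 at an adjusted p under 0.05 with DESeq2 and with limma-voom too. Without adjustment, 22 of the 43 (51.2%) had a p under 0.05 in either direction, against 32.1% of all genes. The fold change was positive for 40 of 43 members, with a median log2 fold change of 1.27 against 0.01 for all genes tested. All 3 libraries of the Slc45a4 mRNA knockdown lay above all 3 of scramble for 20 of the 43 (46.5%), which 17.7% of all genes also did. For 1 member, Stat2, they lay below (2.33%, against 18.4% of all genes). Among all 51 members, tested or not, 22 lay above. Some members, Oas1a and Ifit1 among them, reached the filter's level in knockdown libraries only, so shares of higher members partly follow from it.

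The circSlc45a4 knockdown moved few members past the threshold. Against scramble, Mavs rose and Irf3 and Cmpk2 fell, which is 2.33% higher and 4.65% lower among the 43 members, against 14.1% and 13.0% of all genes tested (27.1% in either direction). Both shares lie below those of genes at large, and that difference was not tested. The median log2 fold change was 0.37 (all genes -0.01), and 30 fold changes were positive and 13 negative. The groups did not overlap for 3 members that were higher and 4 that were lower, 6.98% and 9.30% of the members, against 22.6% and 21.3% of all genes.

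Set directly against each other, the circSlc45a4 knockdown was below the Slc45a4 mRNA knockdown for 39 of 43 members, with a median log2 fold change of -0.83 (all genes -0.02). Of the 43, 7 fell (16.3%: Ifnar1, Irf1, Ifit2, Parp9, Dtx3l, Cmpk2 and Ifi27) and 0 rose, against 12.3% and 13.8% of all genes tested (26.1% in either direction). The groups did not overlap for 8 members that were lower (18.6%) and 1 that was higher (2.33%), against 19.8% and 20.3% of all genes. With DESeq2 9 members fell and 0 rose, against 2375 falls and 2790 rises among all genes. With no adjustment 16 of the 43 (37.2%) had a p under 0.05 in either direction, near the 37.8% of all genes. The 3 comparisons share libraries: scramble stands in 2 of them and each knockdown in 2, so their values are set side by side and not counted as separate evidence.

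**Figure D2:**
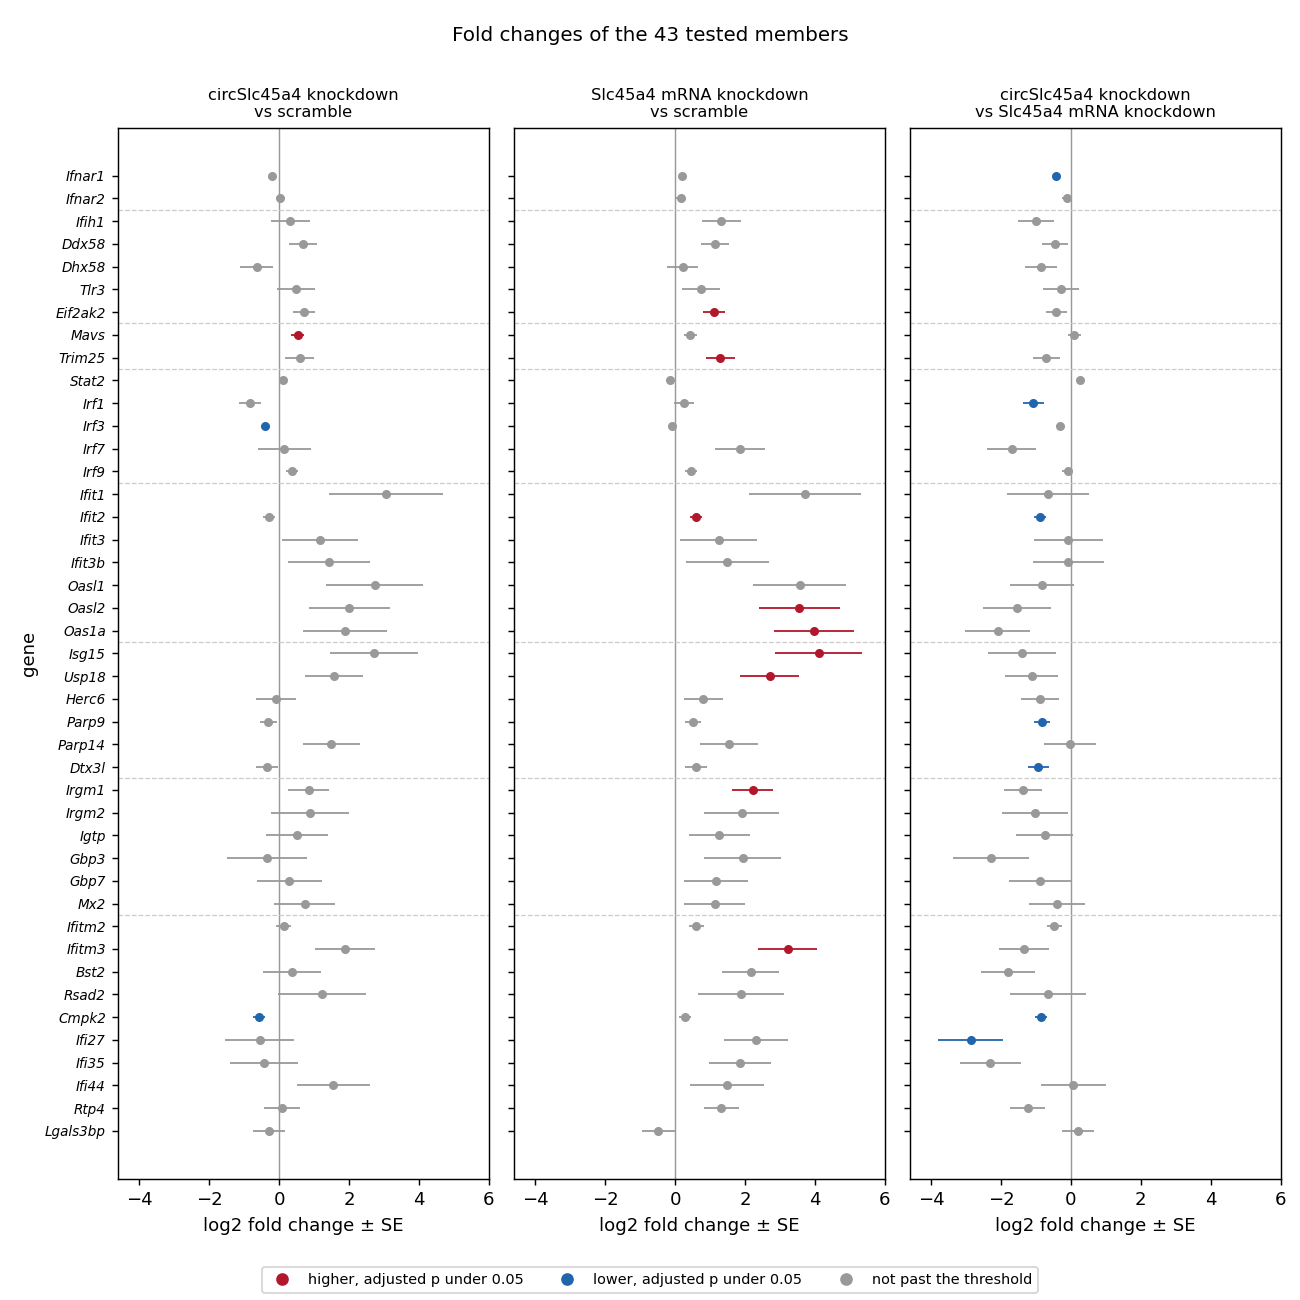
Log2 fold change with its standard error (horizontal axis) for the 43 tested members (vertical axis, dashed lines between roles) in the 3 comparisons, one per panel. Red points rose and blue points fell at an adjusted p under 0.05, and grey points did not pass. In the middle panel 40 of 43 points lie right of 0, and in the right panel 39 of 43 lie left of it.

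Of the receptor genes, Ifnar1 differed between the knockdowns and Ifnar2 passed in no comparison. Ifnar1, the low-affinity chain of the receptor, gave 68.1, 62.5 and 71.1 CPM in circSlc45a4 knockdown libraries and 88.0, 87.2 and 94.3 CPM in Slc45a4 mRNA knockdown libraries, against 80.4, 73.9 and 78.4 CPM in scramble libraries. The 3 groups did not overlap, with the circSlc45a4 knockdown lowest and the Slc45a4 mRNA knockdown highest. Only the direct comparison passed the threshold, where the circSlc45a4 knockdown fell by 0.42 ± 0.08 on the log2 scale (SE, adjusted p = 0.0018). Against scramble the values were -0.21 (adjusted p = 0.069) for the circSlc45a4 knockdown and 0.21 (adjusted p = 0.079) for the Slc45a4 mRNA knockdown. Ifnar2, the other chain, ranged from 14.2 to 15.7 CPM (circSlc45a4 knockdown), from 14.6 to 17.8 CPM (Slc45a4 mRNA knockdown) and from 12.3 to 16.7 CPM (scramble), which overlap. The interferon genes Ifnb1, Ifna1, Ifna2, Ifna4, Ifna5, Ifne, Ifnk, Ifng, Ifnl2 and Ifnl3 had 0 counts in all 9 libraries, so they were not detectable at this depth.

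Among the sensors of double-stranded RNA, Eif2ak2, the kinase that halts translation, measured 9.68, 6.26 and 6.82 CPM upon circSlc45a4 knockdown and 15.7, 6.39 and 8.50 CPM upon Slc45a4 mRNA knockdown, against 2.96, 5.80 and 5.06 CPM for scramble. All 6 knockdown libraries were above all 3 scramble libraries. It rose in the Slc45a4 mRNA knockdown (log2 fold change 1.13 ± 0.32 SE, adjusted p = 0.026), and its value in the circSlc45a4 knockdown was 0.70 ± 0.32 (adjusted p = 0.12). Ddx58, the cytosolic sensor RIG-I, had 5.90, 4.13 and 2.82 CPM with circSlc45a4 knocked down and 10.3, 4.07 and 3.32 CPM with Slc45a4 mRNA knocked down, against 2.30, 3.43 and 2.28 CPM with scramble. The groups overlapped, and the log2 fold changes of 0.67 for the circSlc45a4 knockdown and 1.137 for the Slc45a4 mRNA knockdown did not pass (adjusted p = 0.23 and 0.065). Ifih1, the sensor of long duplexes MDA5, gave 3.60, 0.793 and 1.30 CPM in circSlc45a4 knockdown libraries and 6.59, 3.21 and 1.72 CPM in Slc45a4 mRNA knockdown libraries, against 2.15, 1.17 and 1.33 CPM in scramble libraries, and passed in no comparison (lowest adjusted p = 0.11). The endosomal sensor Tlr3 and the regulator Dhx58 (LGP2) stayed below 1.1 CPM in every library and passed in no comparison. The sensor of left-handed nucleic acids Zbp1 did not pass the filter, with 0 to 10 counts per library.

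Mavs, the adaptor on mitochondria that RIG-I and MDA5 share, measured 4.99, 6.09 and 5.48 CPM upon circSlc45a4 knockdown and 5.22, 4.88 and 5.40 CPM upon Slc45a4 mRNA knockdown, against 2.92, 4.54 and 3.89 CPM for scramble. Every knockdown library was above every scramble library. It rose in the circSlc45a4 knockdown (log2 fold change 0.53 ± 0.19 SE, adjusted p = 0.049), and the Slc45a4 mRNA knockdown had 0.44 ± 0.19 (adjusted p = 0.12). This call was lost in 13 of 17 alternative fits, among them those without replicate 1, 2 or 3 of the circSlc45a4 knockdown and without replicate 1 or 3 of scramble (adjusted p = 0.034 to 0.25 over the 17). Trim25, a ubiquitin ligase that acts in RIG-I signalling and is itself induced by interferon, had 15.1, 5.38 and 5.03 CPM with circSlc45a4 knocked down and 22.2, 10.9 and 8.59 CPM with Slc45a4 mRNA knocked down, against 5.88, 6.29 and 4.88 CPM with scramble. All 3 libraries of the Slc45a4 mRNA knockdown were above scramble, whereas the circSlc45a4 knockdown was above it in replicate 1 alone. Trim25 rose in the Slc45a4 mRNA knockdown (log2 fold change 1.29 ± 0.41 SE, adjusted p = 0.044).

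The STAT and IRF factors divided. Irf3, the factor that the sensors activate first, gave 34.3, 29.6 and 24.8 CPM in circSlc45a4 knockdown libraries and 35.3, 39.5 and 35.8 CPM in Slc45a4 mRNA knockdown libraries, against 38.2, 39.7 and 39.7 CPM in scramble libraries. The circSlc45a4 knockdown lay below all other libraries, and it fell against scramble by 0.41 ± 0.11 on the log2 scale (SE, adjusted p = 0.017). The call of Irf3 was lost in 6 of 17 alternative fits (adjusted p = 0.0033 to 0.21 over the 17). Among these, without replicate 2 or 3 of the circSlc45a4 knockdown, or replicate 2 or 3 of scramble, its adjusted p was between 0.051 and 0.066. Irf1, a factor that interferon gamma induces, measured 1.30, 0.683 and 1.23 CPM upon circSlc45a4 knockdown and 2.09, 2.4 and 2.35 CPM upon Slc45a4 mRNA knockdown, against 1.43, 2.27 and 2.01 CPM for scramble. It fell in the circSlc45a4 knockdown against the Slc45a4 mRNA knockdown by 1.08 ± 0.30 on the log2 scale (SE, adjusted p = 0.018), and by a value that did not pass against scramble (-0.83, adjusted p = 0.059). Without replicate 2 of the circSlc45a4 knockdown the first value had an adjusted p of 0.062. Irf7, the factor that interferon induces to amplify its own production, had 1.43, 0.328 and 0.112 CPM with circSlc45a4 knocked down and 3.71, 1.40 and 1.05 CPM with Slc45a4 mRNA knocked down, against 0.335, 0.648 and 0.679 CPM with scramble. Replicates 2 and 3 of the circSlc45a4 knockdown were below scramble while its replicate 1 was above, and the Slc45a4 mRNA knockdown was above scramble throughout (log2 fold change 1.85, adjusted p = 0.094). Stat2 and Irf9, which act together downstream of the receptor, passed in no comparison. Irf9 had 24.7 to 29.6 CPM with circSlc45a4 knocked down and 23.1 to 38.1 CPM with Slc45a4 mRNA knocked down, above the 19.5 to 21.6 CPM of scramble in every library (log2 fold changes 0.36 and 0.45, adjusted p = 0.14 and 0.080). Stat2 was lower in all 3 libraries of the Slc45a4 mRNA knockdown, at 26.9 to 29.0 CPM, than in scramble, at 29.1 to 32.1 CPM, while the circSlc45a4 knockdown had 29.1 to 38.3 CPM.

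Among induced genes that act on RNA and translation, 3 of 7 tested rose in the Slc45a4 mRNA knockdown, and for all 7 every library of that knockdown lay above every scramble library (all genes: 8.92% rose and 17.7% lay above). Oas1a and Ifit1 reached the filter's level in no scramble library, and Oas2 and Oas3 of this class were not tested. The 7 of 7 is therefore partly fixed by the filter. Oas1a gave 1.23, 0.0547 and 0.179 CPM in circSlc45a4 knockdown libraries and 5.19, 0.674 and 0.582 CPM in Slc45a4 mRNA knockdown libraries, against 0.191, 0.0324 and 0.185 CPM in scramble libraries. Its level rose in the Slc45a4 mRNA knockdown (log2 fold change 3.99 ± 1.15 SE, adjusted p = 0.030), but 57.6% of its 50-base stretches also occur in Oas1g and Oas1b, so reads may be split among these copies. Oasl2 measured 5.84, 0.246 and 0.112 CPM upon circSlc45a4 knockdown and 13.3, 3.16 and 1.86 CPM upon Slc45a4 mRNA knockdown, against 0.335, 0.713 and 0.463 CPM for scramble. The circSlc45a4 knockdown was above scramble in replicate 1 and below it in replicates 2 and 3, while the Slc45a4 mRNA knockdown rose (log2 fold change 3.56 ± 1.15 SE, adjusted p = 0.048). Ifit2, an RNA-binding protein of the Ifit family, behaved otherwise, with 5.34, 5.85 and 6.97 CPM with circSlc45a4 knocked down and 11.9, 12.8 and 9.11 CPM with Slc45a4 mRNA knocked down, against 7.70, 6.35 and 8.24 CPM with scramble. Replicate 1 was not its highest library in either knockdown. Ifit2 rose in the Slc45a4 mRNA knockdown (log2 fold change 0.60 ± 0.17 SE, adjusted p = 0.028). That call was lost in 8 of 17 alternative fits (adjusted p = 0.0089 to 0.60 over the 17). Ifit2 fell in the circSlc45a4 knockdown against the Slc45a4 mRNA knockdown by 0.89 ± 0.17 (SE, adjusted p = 0.0020), a call kept in all 17 alternative fits. Ifit1 gave 1.59, 0 and 0.0671 CPM in circSlc45a4 knockdown libraries and 2.04, 0.351 and 0.277 CPM in Slc45a4 mRNA knockdown libraries, against 0.239, 0 and 0 CPM in scramble libraries, and did not pass. Ifit3, Ifit3b and Oasl1 were below 1.3 CPM in every library and passed in no comparison, and Ifit3 and Ifit3b share 51.2% and 44.95% of their 50-base stretches with near-identical copies, chiefly each other.

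The Isg15 pathway and the ADP-ribosylation genes gave 2 rises among 6 tested in the Slc45a4 mRNA knockdown, where 8.92% of all genes rose. Isg15 measured 3.33, 0.383 and 0.0447 CPM upon circSlc45a4 knockdown and 7.93, 1.38 and 0.775 CPM upon Slc45a4 mRNA knockdown, against 0.191, 0.227 and 0.154 CPM for scramble. It rose in the Slc45a4 mRNA knockdown (log2 fold change 4.12 ± 1.24 SE, adjusted p = 0.036), the largest fitted value among the members, and had 2.71 ± 1.26 in the circSlc45a4 knockdown (adjusted p = 0.13). Usp18, the protease that removes Isg15 and damps the receptor, had 10.2, 1.203 and 1.05 CPM with circSlc45a4 knocked down and 15.3, 8.79 and 3.41 CPM with Slc45a4 mRNA knocked down, against 1.0, 2.62 and 0.525 CPM with scramble. Its level rose in the Slc45a4 mRNA knockdown (log2 fold change 2.71 ± 0.84 SE, adjusted p = 0.040). Parp9 and Dtx3l, which form a complex of an ADP-ribosyltransferase and a ubiquitin ligase, fell in the circSlc45a4 knockdown against the Slc45a4 mRNA knockdown. Parp9 gave 4.56, 2.82 and 3.51 CPM in circSlc45a4 knockdown libraries and 8.51, 6.12 and 4.76 CPM in Slc45a4 mRNA knockdown libraries, against 4.69, 4.73 and 4.11 CPM in scramble libraries (direct log2 fold change -0.83 ± 0.23, SE, adjusted p = 0.018). Dtx3l measured 5.55, 3.03 and 3.76 CPM upon circSlc45a4 knockdown and 11.7, 7.15 and 4.85 CPM upon Slc45a4 mRNA knockdown, against 3.73, 6.35 and 5.43 CPM for scramble (direct log2 fold change -0.94 ± 0.31, SE, adjusted p = 0.039). The exons of Parp9 and Dtx3l overlap by 458 bases on opposite strands, and the strand setting of the counting is not given in the sources used here. Leaving out replicate 2 or 3 of the circSlc45a4 knockdown or replicate 1 of the Slc45a4 mRNA knockdown ended both calls, and leaving out replicate 2 of the Slc45a4 mRNA knockdown ended that of Dtx3l (adjusted p = 0.051 to 0.20). Counting all 17 alternative fits, the call of Parp9 was lost in 4 and that of Dtx3l in 8. Herc6, a ligase for Isg15 in mouse, and Parp14 passed in no comparison.

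Of the interferon-induced GTPases, which guard against intracellular pathogens, 1 of 6 tested rose in the Slc45a4 mRNA knockdown, against 8.92% of all genes. Irgm1 had 5.86, 1.72 and 1.56 CPM with circSlc45a4 knocked down and 14.9, 5.53 and 3.43 CPM with Slc45a4 mRNA knocked down, against 1.43, 2.53 and 1.11 CPM with scramble. The Slc45a4 mRNA knockdown rose by 2.22 ± 0.59 on the log2 scale (SE, adjusted p = 0.020). The Slc45a4 mRNA knockdown was above scramble throughout, and the circSlc45a4 knockdown only in replicate 1. Gbp3, a guanylate-binding protein, gave 1.70, 0 and 0.0671 CPM in circSlc45a4 knockdown libraries and 7.39, 0.755 and 0.665 CPM in Slc45a4 mRNA knockdown libraries, against 0.669, 0.940 and 0.679 CPM in scramble libraries. Replicates 2 and 3 of the circSlc45a4 knockdown were thus lower than every other library, and the fits over all 9 libraries did not pass. Irgm2, Igtp, Gbp7 and Mx2 passed in no comparison. The other 3 GTPases did not pass the filter: Gbp2 had 49, 0 and 0 counts with circSlc45a4 knocked down and 21, 3 and 1 with Slc45a4 mRNA knocked down, against 0, 1 and 3 in scramble. Iigp1 had 37, 0 and 0 counts and 20, 6 and 5 counts in these knockdowns, against 0 in all scramble libraries, and Mx1 had 33, 0 and 0 and 17, 3 and 0 counts, against 0, 6 and 0.

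Membrane proteins and the remaining induced genes gave 1 rise in the Slc45a4 mRNA knockdown, 1 fall in the circSlc45a4 knockdown and 2 direct falls among 10 tested, against 8.92%, 13.0% and 12.3% of all genes. Ifitm3, which blocks the entry of viruses through endosomes, measured 3.04, 0.738 and 0.425 CPM upon circSlc45a4 knockdown and 7.87, 1.59 and 1.30 CPM upon Slc45a4 mRNA knockdown, against 0.335, 0.583 and 0.216 CPM for scramble. It rose in the Slc45a4 mRNA knockdown (log2 fold change 3.23 ± 0.85 SE, adjusted p = 0.019). Cmpk2, a mitochondrial nucleotide kinase, had 4.94, 4.18 and 4.47 CPM with circSlc45a4 knocked down and 9.24, 9.06 and 6.45 CPM with Slc45a4 mRNA knocked down, against 7.12, 6.51 and 6.70 CPM with scramble. The circSlc45a4 knockdown was below every other library, and it fell by 0.58 ± 0.17 on the log2 scale against scramble (SE, adjusted p = 0.022) and by 0.86 ± 0.17 against the Slc45a4 mRNA knockdown (SE, adjusted p = 0.0023). The direct call was kept in all 17 alternative fits, and the call against scramble was lost in 6 of them (adjusted p up to 0.089). It was lost without replicate 2 or 3 of the circSlc45a4 knockdown or any 1 scramble library (adjusted p = 0.051 to 0.071). Ifi27, a small membrane protein, gave 1.59, 0.0547 and 0.0671 CPM in circSlc45a4 knockdown libraries and 8.43, 2.99 and 1.44 CPM in Slc45a4 mRNA knockdown libraries, against 0.813, 1.49 and 0.278 CPM in scramble libraries. It fell in the direct comparison by 2.87 ± 0.92 on the log2 scale (SE, adjusted p = 0.036), a call lost in 6 of 17 alternative fits. It was lost when any 1 of replicates 2 and 3 of the circSlc45a4 knockdown or 1 and 2 of the Slc45a4 mRNA knockdown was left out (adjusted p = 0.051 to 0.17). Bst2, which tethers budding virions, measured 3.09, 0.656 and 0.380 CPM upon circSlc45a4 knockdown and 10.1, 2.43 and 1.97 CPM upon Slc45a4 mRNA knockdown, against 0.956, 1.98 and 0.278 CPM for scramble, and did not pass. Ifitm2, Rsad2, Ifi35, Ifi44, Rtp4 and Lgals3bp passed in no comparison. Lgals3bp had the most negative value of the Slc45a4 mRNA knockdown against scramble (log2 fold change -0.48, adjusted p = 0.53).

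**Figure D3:**
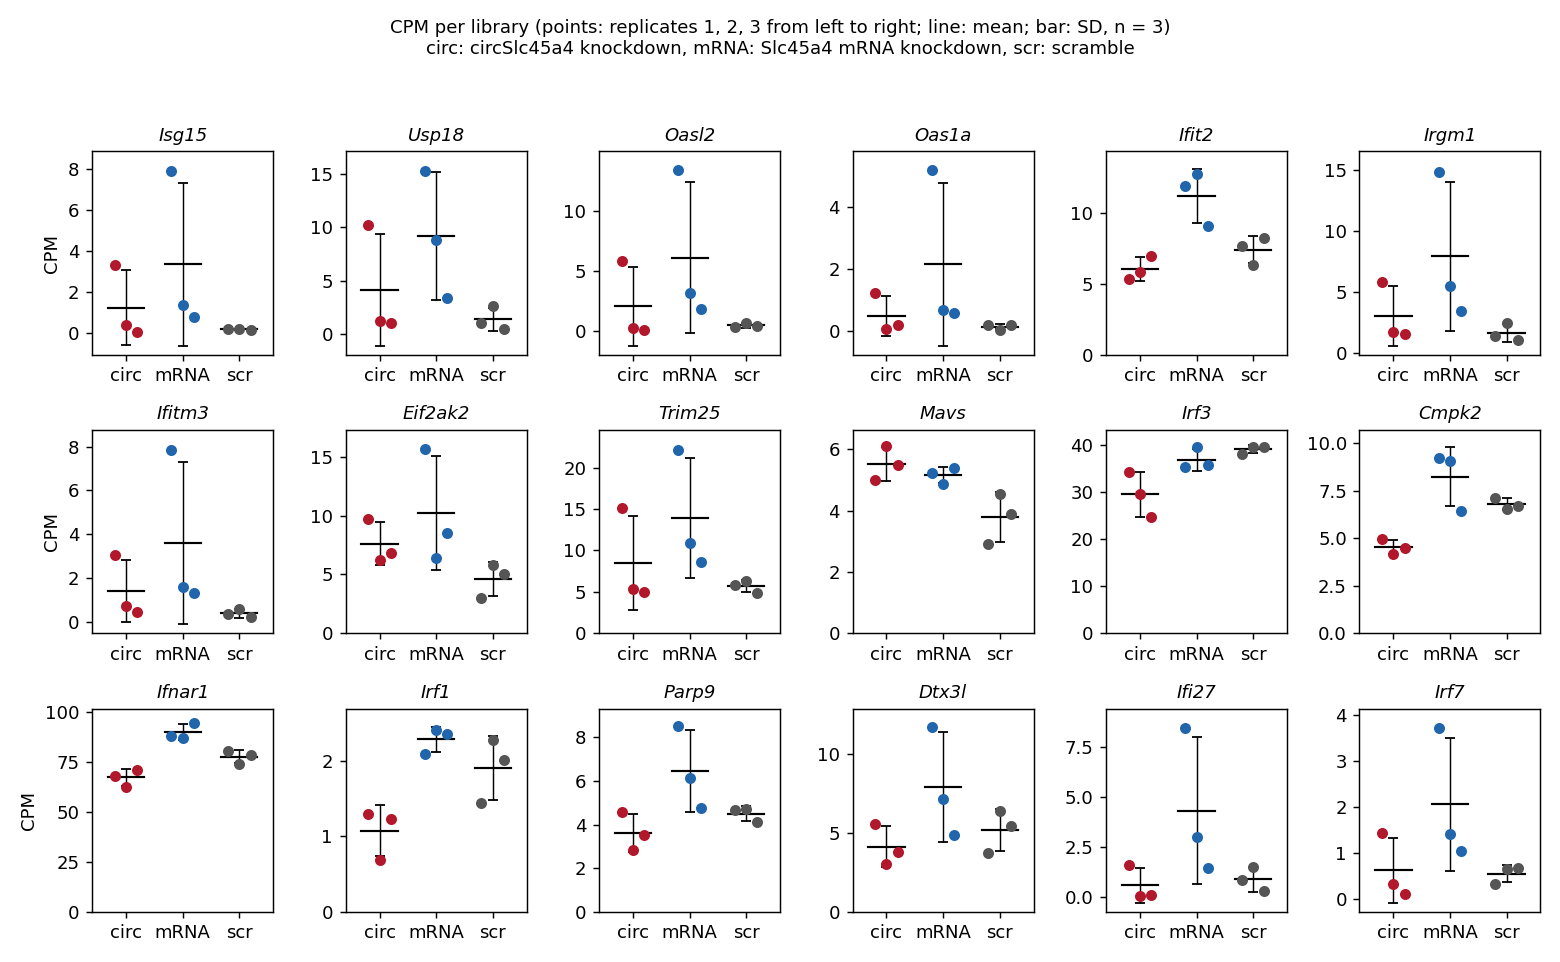
CPM of the 17 members that passed the threshold in any comparison and of Irf7, by library (points, replicates 1, 2 and 3 from left to right), with the mean (line) and SD (bar, n = 3), for the circSlc45a4 knockdown (circ), the Slc45a4 mRNA knockdown (mRNA) and scramble (scr). For Isg15, Oasl2, Oas1a, Irgm1 and Ifitm3 the leftmost point of each knockdown lies far above the other points of its group, whereas Ifnar1, Ifit2, Cmpk2 and Mavs show no such point.

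The other members below the filter had few counts. Xaf1 had 44, 0 and 0 counts with circSlc45a4 knocked down and 29, 5 and 4 with Slc45a4 mRNA knocked down, against 3, 7 and 2 in scramble. Samd9l had 25, 4 and 0 and 27, 9 and 7 counts in these knockdowns, against 2, 2 and 3 in scramble. Oas2 had 15 counts in all libraries together and Oas3 had 11. For Oas2, Gbp2, Iigp1, Mx1, Xaf1 and Samd9l, replicate 1 of both knockdowns together held 86.7%, 89.7%, 83.8%, 84.7%, 77.7% and 65.8% of all counts. For Zbp1 and Oas3 the share was lower, at 34.2% and 27.3%. The share of Oas2 came from 13 counts in replicate 1 of the circSlc45a4 knockdown and 0 in that of the Slc45a4 mRNA knockdown.

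The induced genes were highest in replicate 1 of both knockdowns. The summed level of the 36 induced members was 85.5, 28.7 and 30.6 CPM with circSlc45a4 knocked down and 171.1, 78.2 and 53.8 CPM with Slc45a4 mRNA knocked down, against 39.6, 47.2 and 37.9 CPM with scramble. Replicates 2 and 3 of the circSlc45a4 knockdown lay below all scramble libraries, and all 3 libraries of the Slc45a4 mRNA knockdown lay above them. The 15 receptor, sensor, adaptor and factor members summed to 228.3, 189.4 and 187.9 CPM with circSlc45a4 knocked down and to 274.2, 229.9 and 227.1 CPM with Slc45a4 mRNA knocked down, against 203.2, 209.95 and 200.2 CPM with scramble. A count above 0 was found for 35, 24 and 29 of the 36 induced members with circSlc45a4 knocked down and for 35, 35 and 34 with Slc45a4 mRNA knocked down, against 28, 32 and 30 with scramble, although scramble was sequenced less deeply.

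Replicate 1 was the highest library of its group for 45 of 51 members in the circSlc45a4 knockdown and for 42 of 51 in the Slc45a4 mRNA knockdown, against 12 of 51 in scramble. Of all genes tested, replicate 1 was highest for 33.4%, 39.4% and 37.3% in these groups. Among the 43 tested members, replicate 1 exceeded the mean of replicates 2 and 3 more than 2-fold for 26 (60.5%) in the circSlc45a4 knockdown and for 25 (58.1%) in the Slc45a4 mRNA knockdown, against 3 (6.98%) in scramble, where all genes gave 2.47%, 2.61% and 3.19%. The excess was larger for induced genes, with medians of 2.90 and 1.76 on the log2 scale for 29 genes in the circSlc45a4 and Slc45a4 mRNA knockdowns, against 0.02 in scramble. For the 14 tested receptor, sensor, adaptor and factor genes the medians were 0.52 and 0.51, against -0.03 in scramble. These 14 include genes that interferon induces too, so the classes do not divide induced from uninduced genes. In the circSlc45a4 and Slc45a4 mRNA knockdowns Irf7 had 2.55 and 1.57, Trim25 1.53 and 1.19, and Irf1 0.47 and -0.18. Oasl2 had the largest excess of the circSlc45a4 knockdown, 4.71, with 2.43 in the Slc45a4 mRNA knockdown, and Gbp3 the largest of the Slc45a4 mRNA knockdown, 3.28, with 4.40 in the circSlc45a4 knockdown. Of the tested members, Ifit2, Ifitm2, Ifnar1, Ifnar2 and Mavs were not highest in replicate 1 of either knockdown. These differences describe libraries and carry no test.

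**Figure D4:**
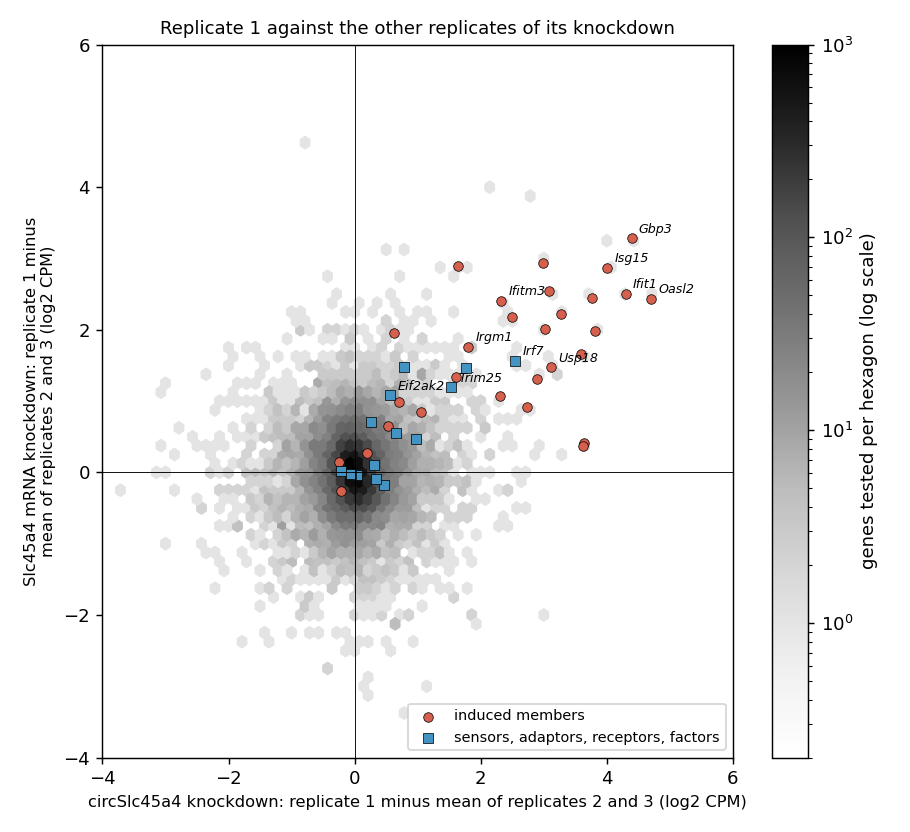
Difference in log2 CPM between replicate 1 and the mean of replicates 2 and 3, for the circSlc45a4 knockdown (horizontal axis) and the Slc45a4 mRNA knockdown (vertical axis). Grey hexagons count all genes tested (log scale; genes beyond the axes are not drawn), red circles are induced members and blue squares the other members. Most induced members lie in the upper right, with Oasl2 at 4.71 and 2.43, and the bulk of all genes lies around 0.

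Across the whole table, 96 of the 17760 tested genes were more than 2-fold higher in replicate 1 of both knockdowns, and 22 of them were members. The 10 other genes with the largest joint excess (average log2 CPM of at least 0) were Robo3, Lhx9, Magel2, Fosb, Rmst, Drd1, Ebf1, Galnt14, Nlrc5 and Bmp3. Nlrc5, a regulator of MHC class I genes that interferon induces, had 3.22, 0.273 and 0.313 CPM with circSlc45a4 knocked down and 4.19, 2.51 and 1.05 CPM with Slc45a4 mRNA knocked down, against 0.287, 0.713 and 0.185 CPM with scramble. Robo3, an axon guidance receptor, gave 33.8, 9.81 and 2.503 CPM in circSlc45a4 knockdown libraries and 9.01, 0.728 and 0.471 CPM in Slc45a4 mRNA knockdown libraries, against 1.0, 2.95 and 18.6 CPM in scramble libraries. Lhx9, a homeobox factor, had 12.4, 3.23 and 1.54 CPM with circSlc45a4 knocked down and 4.24, 0.620 and 1.05 CPM with Slc45a4 mRNA knocked down, against 0.335, 1.33 and 3.03 CPM with scramble. Fosb, an immediate early gene, had 7.51, 0.765 and 3.76 CPM with circSlc45a4 knocked down and 16.5, 0.485 and 1.83 CPM with Slc45a4 mRNA knocked down, against 0.622, 1.62 and 0.988 CPM with scramble. Genes of other kinds therefore moved with the members in these libraries, and their part in the member results was not tested.

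Fits without replicate 1 of both knockdowns lowered the members' median fold change against scramble for both knockdowns, below 0 for the circSlc45a4 knockdown and not for the Slc45a4 mRNA knockdown. These fits were added after the members had been seen to be high in the libraries left out, so their calls describe the remaining libraries and are no independent test. For the circSlc45a4 knockdown against scramble, 31 of 41 tested members had a negative fold change, with a median of -0.53. Cmpk2, Gbp3, Ifi27 and Irf3 were past the threshold there, all lower, which is 9.76% of the members, against 11.3% of all genes that were lower. Among 27 induced members 24 were negative, with a median of -0.64. For the Slc45a4 mRNA knockdown against scramble, 34 of 41 were positive, with a median of 0.46. There Ifitm3, Irgm1, Isg15, Oasl2, Trim25 and Usp18 were past the threshold, all higher (14.6%, against 7.34% of all genes), and all 6 are among the 9 that rose with every library. In the direct comparison 36 of 41 were negative, with a median of -0.93, and 14 were past the threshold, all lower (34.1%, against 7.13% of all genes), 6 of them shared with the 7 found with every library. All-gene medians in these fits were -0.02, 0.00 and -0.01.

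Single libraries decided several counts. The 9 rises of the Slc45a4 mRNA knockdown became 0, 6 and 12 when its replicate 1, 2 or 3 was left out, and 0, 3 and 1 when replicate 1, 2 or 3 of scramble was left out. All-gene rises in the same fits were 1334, 1386 and 1259, then 1202, 864 and 1211, against 1585 with every library. Each of the 9 kept a positive fold change in all these fits. Counting all alternatives, the call was lost in 9 of 17 fits for Trim25 and in 8 for Eif2ak2, Ifit2 and Oasl2. It was lost in 7 for Isg15 and Usp18, in 6 for Ifitm3, in 5 for Irgm1 and, for Oas1a, in 8 of 16. The 7 direct falls became 23 without replicate 1 of the circSlc45a4 knockdown, 3 and 4 without its replicates 2 and 3, and 4 without replicate 1 of the Slc45a4 mRNA knockdown. All-gene falls in these fits were 1351, 1533, 1902 and 1789, in that order, against 2187 with every library. The median of the circSlc45a4 knockdown against scramble turned to -0.53 without its own replicate 1 and was 0.71 and 0.83 without its replicates 2 and 3, and it reached -0.69 with Xist as a covariate. With that covariate the rises of the Slc45a4 mRNA knockdown became 0 of 43, while the calls among all genes fell too, to 453 higher and 285 lower, against 1585 and 1615 without the covariate.

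Markers checked the sorted cells. The cortical neuron gene Neurod6 stood at 1069 to 1290 CPM over the 9 libraries, but other cortical markers differed between groups. Of 10 tested, 3 rose and 2 fell in the circSlc45a4 knockdown against scramble, where 14.1% and 13.0% of all genes did. In the Slc45a4 mRNA knockdown 0 rose and 2 fell. Sox2 had 85.2, 92.5 and 72.3 CPM with circSlc45a4 knocked down, against 33.9, 44.6 and 48.1 CPM with scramble. Dcx had 1124, 1072 and 1361 CPM in the same knockdown, against 2088, 1728 and 1686 CPM with scramble. The 14 microglial markers, genes of the brain's resident macrophages, summed to 18.5, 21.2 and 15.9 CPM with circSlc45a4 knocked down and to 10.4, 16.8 and 12.3 CPM with Slc45a4 mRNA knocked down, against 11.4, 10.5 and 10.3 CPM with scramble. Replicate 1 was the highest library for 3 of the 14 markers in the circSlc45a4 knockdown (Aif1, Cd68 and Tyrobp) and for 2 in the Slc45a4 mRNA knockdown (Fcer1g and Ptprc), against 6 in scramble. Cd68, the most abundant of them, had 9.59, 5.71 and 5.81 CPM with circSlc45a4 knocked down. Aif1 was at 0 in 1 library of each group, and P2ry12 was at 0 in replicate 1 of the Slc45a4 mRNA knockdown. Of 11 tested microglial markers, 3 rose in the circSlc45a4 knockdown (27.3%, against 14.1% of all genes) and 0 in the Slc45a4 mRNA knockdown (8.92% of all genes). In the circSlc45a4 knockdown all 11 fold changes were positive, with a median of 1.28 on the log2 scale (all genes -0.01). For 6 of the 11 (54.5%) every library lay above scramble, against 22.6% of all genes. In the Slc45a4 mRNA knockdown 10 of the 11 fold changes were positive, with a median of 0.84 (all genes 0.01). There 1 marker lay above scramble in every library and 1 below (9.09% each, against 17.7% and 18.4% of all genes). The 9 endothelial markers summed to 1.25 to 2.37 CPM, 1.88 to 2.51 CPM and 2.53 to 5.31 CPM in these 3 groups in the order just given, and Tek was at 0 in all 3 libraries of the circSlc45a4 knockdown. The 5 pericyte markers summed to 3.60 to 5.25 CPM, 1.67 to 2.91 CPM and 1.78 to 4.73 CPM, and the 5 meningeal markers to 0.783 to 0.939 CPM, 0.620 to 0.859 CPM and 1.11 to 1.77 CPM in the same groups. The 6 erythroid markers summed to 9.01 to 22.3 CPM, 6.31 to 6.59 CPM and 9.20 to 14.4 CPM. The 5 lymphocyte and neutrophil markers summed to at most 0.536 CPM, with Cd3e, Ncr1 and S100a8 at 0 in all 9 libraries. The part of these cell types in the member results was not tested.

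**Figure D5:**
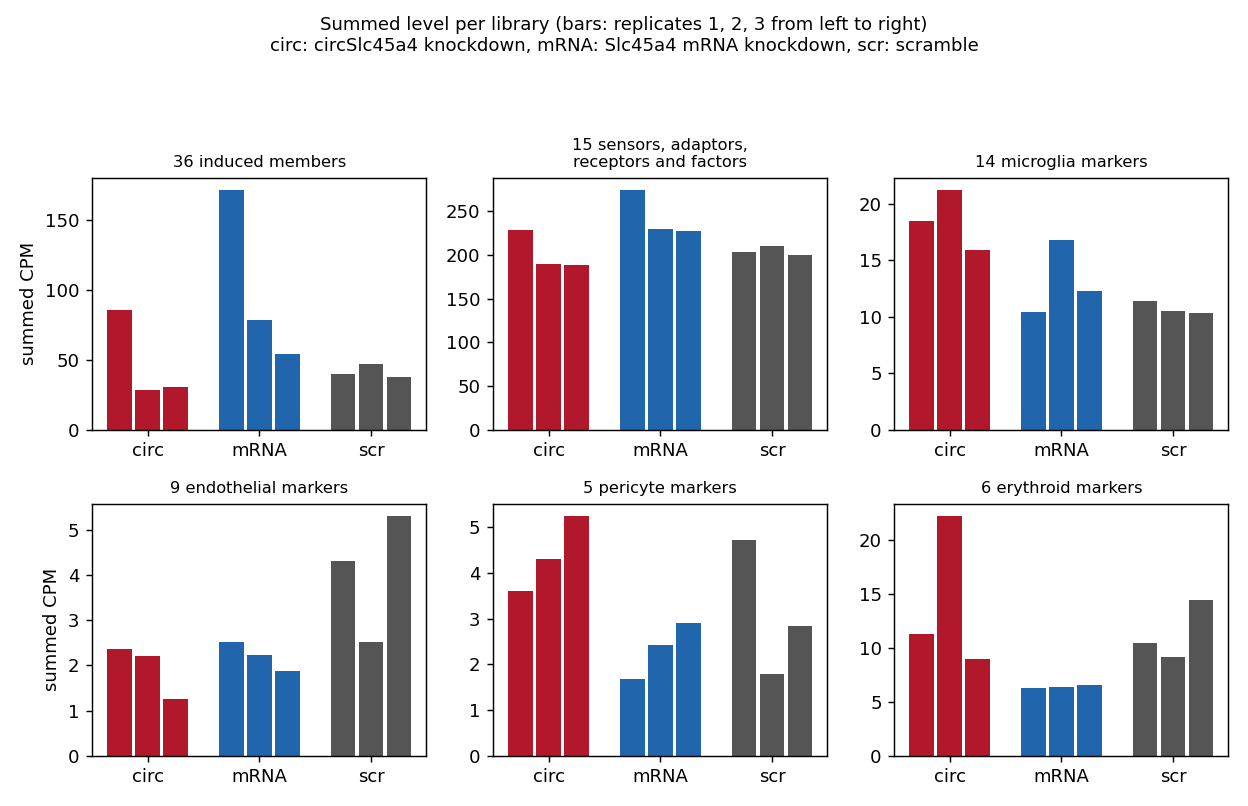
Summed CPM per library (bars, replicates 1, 2 and 3 from left to right) of the 36 induced members, the 15 other members and 4 marker lists of other cell types, for the circSlc45a4 knockdown (circ), the Slc45a4 mRNA knockdown (mRNA) and scramble (scr). The first bar of each knockdown is the tallest for the induced members (85.5 and 171.1 CPM), but not for the microglial markers (18.5 and 10.4 CPM).

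The rest of the pathway was read from a list of 56 further genes (ligands, receptor kinases, signalling proteins, brakes and RNA-processing enzymes), of which 39 were tested. In the circSlc45a4 knockdown against scramble 5 rose and 5 fell (12.8% each), in the Slc45a4 mRNA knockdown against scramble 1 rose and 2 fell (2.56% and 5.13%), and in the direct comparison 6 rose and 6 fell (15.4% each). These shares are near or below those of all genes. Nfkb1, a subunit of the factor NF-kappaB, gave 35.7, 28.2 and 26.9 CPM in circSlc45a4 knockdown libraries and 18.2, 16.6 and 16.3 CPM in Slc45a4 mRNA knockdown libraries, against 14.7, 14.8 and 16.5 CPM in scramble libraries. It rose in the circSlc45a4 knockdown by a log2 fold change of 0.98 ± 0.12 against scramble (SE, adjusted p = 8.3e-05) and 0.83 ± 0.12 against the Slc45a4 mRNA knockdown (SE, adjusted p = 0.00034). Cyld, a deubiquitinase that restrains this signalling, rose in both knockdowns, by 0.59 and 0.33 on the log2 scale (adjusted p = 0.00040 and 0.025), and Otud4, another deubiquitinase, rose in the circSlc45a4 knockdown by 0.48 (adjusted p = 0.0011). Rnaseh2a, the catalytic subunit of an enzyme that clears RNA from DNA, measured 18.2, 19.9 and 20.7 CPM upon circSlc45a4 knockdown and 34.97, 35.3 and 35.5 CPM upon Slc45a4 mRNA knockdown, against 29.6, 26.8 and 30.8 CPM for scramble. It fell in the circSlc45a4 knockdown by 0.57 against scramble and by 0.85 against the Slc45a4 mRNA knockdown on the log2 scale (adjusted p = 0.00078 and 5.2e-05), and its partner Rnaseh2c fell by 0.67 and 1.09 (adjusted p = 0.0086 and 0.00037). Among enzymes that process double-stranded RNA, Drosha fell in the circSlc45a4 knockdown by 0.44 against scramble (adjusted p = 0.0011) and Dicer1 rose by 0.32 (adjusted p = 0.010). Samhd1, which limits free nucleotides, fell there by 0.47 (adjusted p = 0.021). The receptor kinase Tyk2 fell in the Slc45a4 mRNA knockdown by 0.48 (adjusted p = 0.010). Mb21d1, the DNA sensor cGAS, had 3, 1 and 5 counts with circSlc45a4 knocked down and 15, 16 and 11 with Slc45a4 mRNA knocked down, against 4, 6 and 7 in scramble, and was lower in the direct comparison (adjusted p = 0.012).

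Many members lie in clusters, and neighbours did not all behave alike. On chromosome 19 (GRCm38, first base 34550694, last base 34650009) Ifit2, Ifit3, Ifit3b and Ifit1 follow each other on the plus strand. Replicate 1 exceeded the other replicates by 4.30 in the circSlc45a4 knockdown and 2.51 in the Slc45a4 mRNA knockdown for Ifit1 on the log2 scale, against -0.25 and 0.14 for Ifit2. On chromosome 12, Rsad2 (26442746 to 26456452, minus strand), the antiviral enzyme viperin, and Cmpk2 (26469204 to 26479837, plus strand) lie head to head. Rsad2 had an excess of 3.76 and 2.44 in replicate 1 of the circSlc45a4 and Slc45a4 mRNA knockdowns, and Cmpk2 of 0.19 and 0.27. On chromosome 7, Ifitm2 (140954837 to 140955987) and Ifitm3 (141009586 to 141010770), both on the minus strand, had excesses of -0.21 and 2.32 with circSlc45a4 knocked down and of -0.26 and 2.41 with Slc45a4 mRNA knocked down. Rsad2, Ifitm2 and Ifitm3 hold the response element in their promoter windows, as does Ifit1 in the sequence printed above, and Ifit2 and Cmpk2 hold none in theirs. Ifitm2 thus holds it without an excess, and Oasl2, with an excess of 4.71 in the circSlc45a4 knockdown, holds none in its window. Any link between the element and the excess was not tested. Of Ifitm2, 48.5% of the 50-base stretches also occur in other genes, so its counts are uncertain.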

How the data were processed

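The authors deposited 1 table of whole read counts per gene, not normalized, for 53379 gene rows in 9 libraries, and every column was used. Per the submitters' processing notes, the build was mm10 and the tools were STAR 2.4.2a, bcl2fastq 2.17.1.14 and DESeq2. Which program counted reads, and whether by strand, is not given in the sources used here. IDs were joined to GENCODE M21 (GRCm38, the assembly of mm10), which gave symbols for 53274 rows and none for 105. From the deposited counts, edgeR 4.0.16 kept 17760 genes (filterByExpr on the groups, minimum count 10), computed TMM factors and fitted its quasi-likelihood model to the 9 libraries together, leaving 6 residual degrees of freedom after the 3 group means. Members were read from this fit and never adjusted over their list alone. CPM uses TMM-scaled totals, RPKM divides CPM by merged exon length, and standard errors come from the log2 fold change and its F. Replicates varied by 13.9% (common biological coefficient of variation). Reads carry no molecular identifiers, so the limit of 3 counts covers counting error only. On simulated data, changes of 2-fold were recovered in 71%, 69% and 68% of 100 genes in the circSlc45a4 knockdown against scramble, the Slc45a4 mRNA knockdown against scramble and the direct comparison, and changes of 1.5-fold in 51%, 36% and 46%. The changed genes were drawn at random from all genes tested, with no shift shared by the replicate 1 libraries, so these rates do not describe the members. No 2 replicates held identical values or counts within sampling noise. The members, lists and tests were chosen with earlier results of these data known. Values are given for all members called in any comparison, for all receptors, sensors, adaptors and factors, for up to 10 called genes of the wider pathway with the smallest p, and for the genes with the largest joint excess in replicate 1. Alternatives were RLE (DESeq2-style) and upper-quartile factors, limma-voom (limma 3.58.1), a DESeq2 1.42.0 Wald test, leaving out the filter, 1 CPM in 3 libraries, only the 2 groups compared, the replicate number as a block, Xist as a covariate, a minimum change of 1.2-fold and leaving out each library.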

Additional observations from a re-analysis of the deposited data

How the results depend on the processing

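No called member reversed its sign under any alternative run, but of 110 member fold changes that did not pass, 55 took another sign under at least 1 alternative and 51 passed under at least 1. The median of the circSlc45a4 knockdown against scramble (0.37) turned to -0.53 without its replicate 1 and to -0.69 with Xist as a covariate. Members that rose in the circSlc45a4 knockdown against scramble (1) became 0 with upper-quartile factors, limma-voom, Xist as a covariate and a minimum change of 1.2-fold, 2 with only the 2 groups compared and 15 with no filter. Members that fell there (2) became 4 with upper-quartile factors, 1 with Xist and 0 with the 1.2-fold minimum. The 9 members that rose in the Slc45a4 mRNA knockdown became 1 with limma-voom, 25 with no filter, 0 with Xist and 2 with the 1.2-fold minimum, and the 7 that fell in the direct comparison became 21 with no filter and 3 with the 1.2-fold minimum. Without the filter, edgeR estimated an infinite prior weight for the spread (7.23 degrees of freedom in the filtered fit), so those calls rest on the trend alone. Leaving out 1 library gave 0 to 2 rises and 0 to 3 falls for the circSlc45a4 knockdown against scramble, 0 to 12 rises for the Slc45a4 mRNA knockdown, and 0 to 1 rises and 3 to 23 falls directly. Leaving out replicate 1 of both knockdowns gave 0 rises and 4 falls, 6 rises, and 14 direct falls.

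Over all genes, the 2509 rises and 2305 falls of the circSlc45a4 knockdown became 787 and 412 with Xist and 1344 and 1086 with the 1.2-fold minimum, and the 1585 and 1615 of the Slc45a4 mRNA knockdown became 453 and 285 and 606 and 591. The direct 2445 and 2187 became 1150 and 923 with the minimum and 1593 and 1291 without replicate 1 of both knockdowns. Without 1 library, or without replicate 1 of both knockdowns, the ranges were 1858 to 2374 and 1528 to 2047 for the circSlc45a4 knockdown, 864 to 1386 and 896 to 1378 for the Slc45a4 mRNA knockdown, and 1593 to 2199 and 1291 to 1902 directly. Upper-quartile factors moved the share of rises among calls to 42.3% (52.1% with TMM) for the circSlc45a4 knockdown against scramble and to 42.1% (52.8%) directly. The cause of these shifts was not tested.

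Replicate numbers did not pair the knockdowns with scramble. Same-numbered libraries had correlations of their deviations of -0.12, 0.03 and -0.07 (circSlc45a4 knockdown with scramble) and -0.14, 0.02 and -0.09 (Slc45a4 mRNA knockdown with scramble). Between the knockdowns they were 0.08, 0.08 and 0.12, and libraries of different number gave -0.07 to -0.03. With the replicate block, rises in the circSlc45a4 knockdown against scramble became 0 and direct falls 12. In the pair of knockdowns every library correlated best with its own number, a hint from the data and not from the design.

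Depth limits the weakest members: 8 of 51 were not tested, and a level under 0.0671 to 0.143 CPM could not be told from 0.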
